A study of Mus musculus with 6 samples.

Results

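Growth factors and receptor tyrosine kinases were followed in mouse 3T3 fibroblasts, an immortalised line from mouse embryos, as 45 genes taken from a fixed list out of 35275 in the deposited table. They comprised 29 ligands and 16 receptors of the FGF, PDGF, VEGF, HGF, EGF, neurotrophin, angiopoietin and related families, listed by name with no threshold on a measured value, and all 45 were found. RNA was sequenced from 3 libraries of cells with a control construct and 3 of cells with a construct that overexpresses NNMT, nicotinamide N-methyltransferase, an enzyme that uses S-adenosylmethionine to methylate nicotinamide. Both groups had grown for 48 h in DMEM without methionine to which 10 µM methionine and 10% dialyzed fetal bovine serum were added. The sources used here do not name the vector or its promoter, or say whether the cells of a group were 1 clone or a pool. They do not say either that the libraries of a group came from separately transduced cultures, so p-values measure the spread between these libraries. The comparison asks which genes differ with NNMT in this medium.

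Receptor tyrosine kinases are cell surface proteins that are brought together by an extracellular ligand, phosphorylate each other inside the cell and switch on the RAS, PI3K and PLCγ pathways. Most of their ligands are secreted or, in the EGF family, cut from the membrane, and in connective tissue many act from fibroblasts on neighbouring epithelium, nerve and vessels that carry the matching receptor. Fibroblast growth and survival in culture depend themselves on PDGF, FGF and related factors.

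The deposited values are read as FPKM, reads on a gene scaled to the length of its transcript and to the size of the library. They are written below for control replicates 1, 2 and 3 in that order, and for the NNMT library without a replicate number, NNMT replicate 2 and NNMT replicate 3 in that order. From 31622291 to 39982107 reads were recovered per library, and 1 read on a transcript of 1 kb was worth 0.0250 to 0.0316 FPKM. Nnmt itself (chr9:48591877-48605153, coordinates of GENCODE M21 on GRCm38 here and below) stood at 7.60, 5.25 and 6.51 FPKM in the control libraries and at 15.7, 15 and 18.3 FPKM in the NNMT libraries, 2.53-fold higher (log2 fold change 1.23 ± 0.108 SE, limma adjusted p = 4.75e-06). The groups stood apart widely: correlations of log2(FPKM + 1) ran from 0.995 to 0.998 within groups and from 0.956 to 0.964 between them. On the X chromosome 305 of 338 tested genes were lower in the NNMT libraries and 8 were higher, and all 7 tested Y genes were higher. None of the 45 genes lies on X or Y, and the part of this difference between the cell populations in the results below was not tested. Summed fibroblast markers were at 7743 to 7918 FPKM in the control libraries and 9826 to 11001 in the NNMT libraries. Of the 10 tested, 5 were higher, collagen genes among them, 4 were lower, such as Thy1 at 257 ± 18.8 and 120 ± 5.22 FPKM, and 1 was not called. Fap, an 11th marker, known from activated fibroblasts, was at or near 0 in both groups.

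Tests were made with limma on log2(FPKM + 1) for the 10882 genes whose 6 libraries averaged 1 FPKM or more, with Benjamini-Hochberg adjustment over all of them and a threshold of 0.05. Of the 45 genes, 24 entered this test, and 12 were called higher and 8 lower in the NNMT libraries, 83.3% of those tested. Of all tested genes 65.6% were called, 35.0% higher and 30.6% lower. All 20 called genes had values that did not overlap between the groups, which held for 69.9% of all tested genes. With such backgrounds the count of calls is a weak description of these genes, and the size of each difference says more. Of the 20, 6 (30.0%) differed at least 2-fold in mean FPKM, Gdnf among them, while 7 differed less than 1.5-fold. Of all called genes 10.0% differed at least 2-fold. The genes were listed with earlier results of these data known, so these shares describe the list and do not test it. Egfr and Gdnf entered the test only through their NNMT libraries, since their control mean was under 1 FPKM. An exact permutation test over the 6 libraries cannot go below p = 0.1 with 3 against 3, and it gave 0.1 for each of the 20. The SEs and adjusted p-values below are those of limma, and folds are ratios of mean FPKM. The log2 fold changes are on log2(FPKM + 1) and understate the differences of genes at low FPKM, so for 4 such genes the value of limma-voom on recovered reads, a test described further on, is given too.

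**Figure D1:**
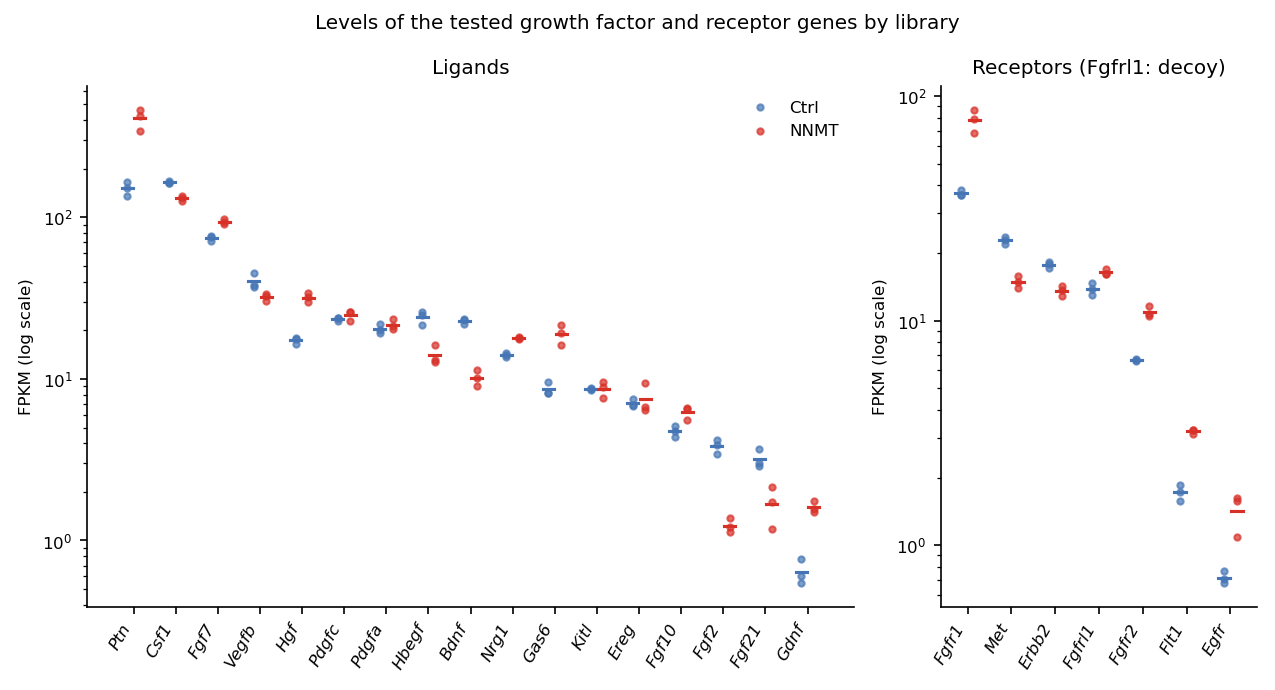
FPKM (log axis) of the 24 tested genes in each library, ligands at left and receptors at right, with points for libraries (blue control, red NNMT) and a bar for the group mean. The ligands span from Ptn, at 409 FPKM in the NNMT libraries, to Gdnf, at 0.639 FPKM in the control libraries, and the libraries overlap between groups for Pdgfa, Pdgfc, Kitl and Ereg.

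Among the FGF ligands, Fgf2 was lower in the NNMT libraries, Fgf21 was lower, and Fgf7 and Fgf10 were moderately higher. Fgf2 (chr3:37348346-37410108) encodes basic FGF, a mitogen of fibroblasts and endothelial cells that binds heparan sulfate. It stood at 3.89, 4.20 and 3.41 FPKM in the control libraries and at 1.37, 1.21 and 1.13 FPKM in the NNMT libraries. Each NNMT library was below each control library, and the means of 3.83 ± 0.399 and 1.24 ± 0.121 FPKM (SD, n = 3) differed 3.10-fold, the widest ratio among the 24 tested genes (log2 fold change -1.11 ± 0.0798 SE, adjusted p = 1.17e-06; -1.67 in limma-voom). These levels rest on 501 control reads and 172 NNMT reads. Exons of Fgf2 overlap those of Nudt6 on the opposite strand, which was at 2.91 FPKM on average, and without knowledge of the strand rule of the counting the share of reads from each cannot be told apart.

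Fgf7 and Fgf10 encode factors that mesenchymal cells release to act on epithelium through the IIIb form of FGFR2. Fgf7 was by far the most abundant FGF transcript per length, at 76.3, 71.5 and 75.2 FPKM in the control libraries against 90.7, 93.9 and 97.3 FPKM with NNMT. It was 1.26-fold higher (log2 fold change 0.33 ± 0.0477 SE, adjusted p = 1.41e-04), in a 10 Mb window of chromosome 2 where the median of 81 tested genes was -0.21. Fgf10 was at 4.78, 4.34 and 5.14 FPKM against 5.58, 6.47 and 6.57 FPKM, 1.31-fold higher (0.32 ± 0.0751 SE, adjusted p = 3.25e-03). Neither gene overlapped between the groups, and for Fgf10 the gap between the highest control and the lowest NNMT library was narrow.

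Fgf21 encodes an endocrine FGF that needs the coreceptor beta-Klotho and is known in liver and other tissues as a target of the ATF4 branch of the stress response. It stood at 3.66, 2.87 and 3.02 FPKM in the control libraries and at 1.18, 1.73 and 2.13 FPKM with NNMT, on 309 and 173 reads. The NNMT libraries were all lower but spread widely, and the means differed 1.89-fold (log2 fold change -0.65 ± 0.124 SE, adjusted p = 9.52e-04; -1.0 in limma-voom). Klb, the gene of beta-Klotho, had 3 control reads and 6 NNMT reads in all. The 250 bases before the Fgf21 start (chr7:45615491-45615740, minus strand, RefSeq on GRCm38.p6) are shown because they hold 3 of the 5 motifs searched over promoters. The first capitals from the left mark the ATF4 composite element, TGATGCAAT read on the minus strand, 140 bases before the start. The second mark an E-box, CACGTG, 50 bases before the start. The third mark a TATA box 28 bases before it, spelled TATAAA.
Fgf21: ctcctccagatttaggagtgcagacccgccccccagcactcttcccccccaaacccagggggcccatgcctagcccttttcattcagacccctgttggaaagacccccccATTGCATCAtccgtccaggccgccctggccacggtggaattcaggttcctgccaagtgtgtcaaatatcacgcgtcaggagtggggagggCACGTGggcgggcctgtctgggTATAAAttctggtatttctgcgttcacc
Of 32841 RefSeq promoter windows of this length, 0.167% hold the ATF4 composite element on either strand, 6.02% the E-box and 12.4% the TATA box, and a match describes letters and not a site in use.

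The remaining FGF ligands were barely detected. Fgf18 had 12 reads in the control and 25 in the NNMT libraries (log2 fold change 0.73, 95% interval -0.65 to 2.11). Fgf1 had 1 read in all, and Fgf5 had none in any library, which over the 6 libraries allows up to 0.00554 FPKM at a floor of 3 reads, counting error only.

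Among FGF receptors, Fgfr1 and Fgfr2 were both higher with NNMT, and Fgfr3 and Fgfr4 were close to 0. Fgfr1 (chr8:25513654-25575718), the main FGF receptor of mesenchymal cells and a receptor of FGF2, stood at 38.1, 36.2 and 36.1 FPKM in the control libraries and at 86.9, 68.1 and 78.6 FPKM with NNMT. The control libraries lay within a narrow range and the NNMT libraries were spread more, with no overlap. The means of 36.8 ± 1.15 and 77.9 ± 9.42 FPKM (SD, n = 3) differed 2.12-fold (log2 fold change 1.06 ± 0.0768 SE, adjusted p = 1.25e-06). Genes near Fgfr1 were higher too, but by less: of 42 tested genes in its 10 Mb window 23 were higher and 3 lower, with a median log2 fold change of 0.18.

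Fgfr2 was at 6.67, 6.62 and 6.72 FPKM in the control libraries and at 10.7, 10.5 and 11.6 FPKM with NNMT. It was 1.64-fold higher (log2 fold change 0.63 ± 0.0549 SE, adjusted p = 4.16e-06), with groups far apart. Its annotated exons overlap those of Ctbp2 on the same strand, which was at 11.5 FPKM on average, and the values do not tell the IIIb form from the IIIc form. Fgfrl1, a receptor-like protein that binds FGFs but has no kinase domain, was at 14.7, 13.8 and 13 FPKM against 16.9, 16.2 and 16.2 FPKM. Its difference was the smallest among the called genes, 1.19-fold higher (0.24 ± 0.0551 SE, adjusted p = 3.51e-03), and close to the median of 0.21 in its 10 Mb window. After each gene was centred on the median of its chromosome, Fgfrl1 was no longer called (0.079, adjusted p = 0.240). Fgfr3 had 2 reads in all 6 libraries and Fgfr4 had 6, so Fgfr1 and Fgfr2 held nearly all the FGF receptor kinase transcript in these cells.

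The PDGF ligands, which drive the growth of fibroblasts and smooth muscle cells, showed no called difference where they were abundant. Pdgfa was at 19.3, 21.9 and 20.2 FPKM in the control libraries and 20.4, 23.4 and 21.2 FPKM with NNMT, with overlapping groups (log2 fold change 0.08, 95% interval -0.06 to 0.22, adjusted p = 0.282). Pdgfc was at 23.7, 23.9 and 22.7 FPKM against 22.8, 25.9 and 26.1 FPKM (0.09, 95% interval -0.04 to 0.21, adjusted p = 0.222). The unnumbered NNMT library lay among the control libraries for Pdgfc, and without it Pdgfc passed the threshold (0.15, adjusted p = 0.0199). Their receptors stood differently: Pdgfrb rose from 28.5 ± 1.16 to 52.5 ± 5.16 FPKM (1.84-fold, 0.85 ± 0.0688 SE, adjusted p = 2.56e-06), while Pdgfra was at 36.9 ± 6.26 and 37.5 ± 8.85 FPKM (0.01 ± 0.174 SE, adjusted p = 0.973). Pdgfb had 1 read in the control and 10 in the NNMT libraries, and Pdgfd had 1 read in all.

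Of the VEGF family genes in the list that averaged above 1 FPKM, Vegfb fell and Flt1 rose. The family is best known from blood and lymph vessels, and Vegfa, which is not among the 45 genes, is not described here. Vegfb encodes a ligand of VEGFR1, and it stood at 45.2, 36.8 and 38.2 FPKM in the control libraries and at 32.5, 30.3 and 33.6 FPKM with NNMT. The groups did not overlap, and control replicate 1 was the highest library. The means differed 1.25-fold (log2 fold change -0.31 ± 0.0741 SE, adjusted p = 4.26e-03), and centred on its chromosome median Vegfb was at -0.46. Flt1 encodes VEGFR1, and in many tissues also a secreted form that traps VEGF. It was at 1.72, 1.86 and 1.58 FPKM against 3.25, 3.13 and 3.27 FPKM, 1.87-fold higher (0.63 ± 0.0669 SE, adjusted p = 1.69e-05), with the 3 NNMT libraries close together. Kdr and Flt4, which encode the other two VEGF receptors, had 3 reads and 1 read in all.

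Flt1 is expressed in endothelial cells, so markers of these cells are given beside it. Of 10 endothelial markers, 4 were at 0 in all 6 libraries and 7 were under 0.1 FPKM. Pecam1 was at 0.0447 ± 0.0105 FPKM in the control libraries and 0.0603 ± 0.0242 with NNMT, and Cdh5 at 0.0865 ± 0.0186 and 0.0244 ± 0.0211. The summed level of the 10 was 1.58 to 2.22 FPKM in the control libraries and 2.20 to 2.52 with NNMT, most of it from Egfl7. Only 1 of the 10 entered the limma test, and it was called higher (log2 fold change 0.29). In bulk RNA, more cells of a type and more RNA per cell cannot be told apart.

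HGF and its receptor MET moved in opposite directions. Hgf (chr5:16553495-16620152) encodes hepatocyte growth factor, which fibroblasts secrete and which acts on epithelial and other cells through MET. It stood at 17.6, 16.5 and 17.9 FPKM in the control libraries and at 31.9, 29.8 and 33.9 FPKM with NNMT. All 3 NNMT libraries were well above the control libraries, and the means of 17.3 ± 0.761 and 31.8 ± 2.07 FPKM differed 1.84-fold (log2 fold change 0.84 ± 0.0578 SE, adjusted p = 8.71e-07). Met (chr6:17463800-17573980) was at 21.9, 23.6 and 22.9 FPKM in the control libraries and at 14.0, 15.8 and 14.8 FPKM with NNMT. It fell in each NNMT library, 1.53-fold by the means of 22.8 ± 0.890 and 14.9 ± 0.910 FPKM (log2 fold change -0.58 ± 0.0558 SE, adjusted p = 8.41e-06). The level of Hgf per length was thus below that of Met in each control library and above it in each NNMT library. Mst1r, the gene of RON, the close relative of MET, had 28 reads in the control and 101 in the NNMT libraries, and is described with the genes of low level.

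**Figure D2:**
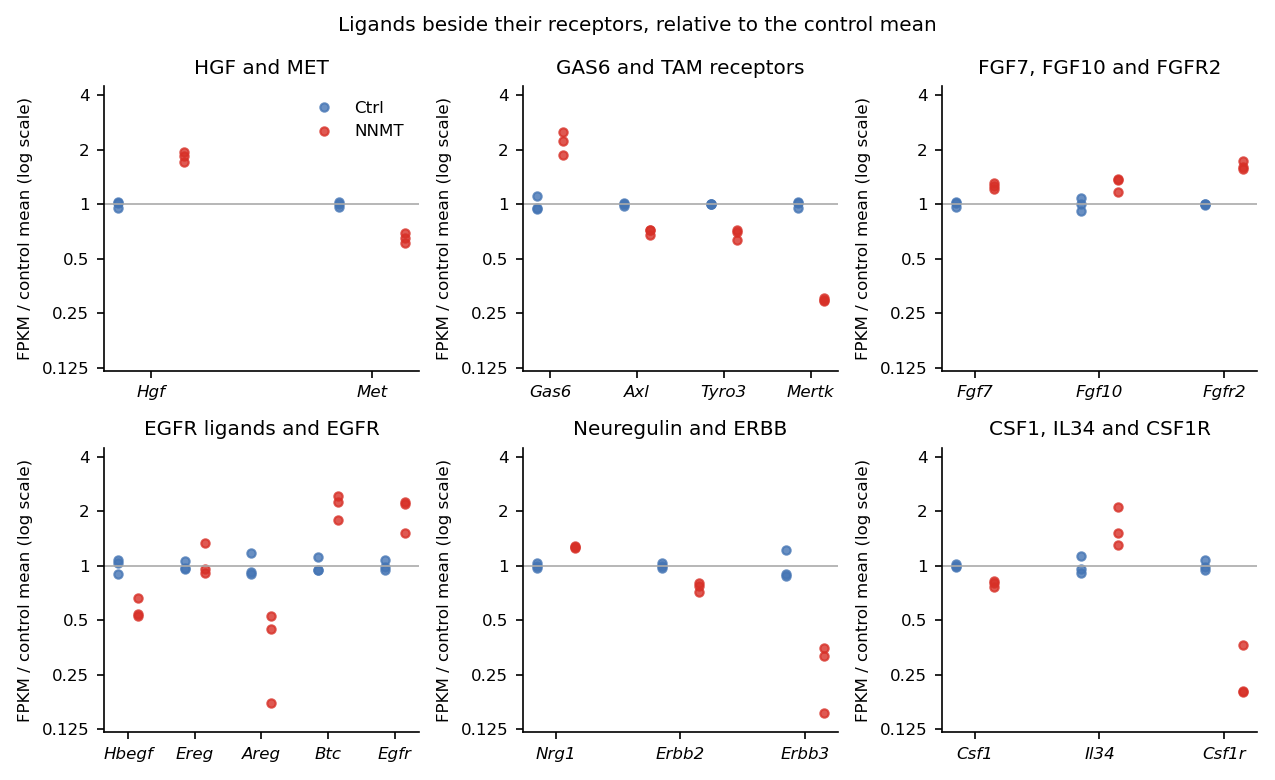
FPKM of ligands and their receptors in each library, divided by the gene's mean in the control libraries (log axis, blue control, red NNMT), for 6 ligand and receptor groups. Hgf and Gas6 lie above 1 and their receptors below it in every NNMT library, while Fgf7, Fgf10 and Fgfr2 lie above 1 together.

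The EGF family showed changes in both directions. Hbegf, whose heparin-binding product activates EGFR and ERBB4, stood at 21.6, 25.9 and 24.9 FPKM in the control libraries and at 13, 16.1 and 12.8 FPKM with NNMT. Every NNMT library was lower, and the means differed 1.73-fold (log2 fold change -0.75 ± 0.0892 SE, adjusted p = 3.90e-05). Nrg1, the gene of neuregulin 1, a ligand of ERBB3 and ERBB4, was at 14.1, 14.5 and 13.6 FPKM against 17.7, 18.1 and 17.9 FPKM, 1.27-fold higher (0.32 ± 0.0466 SE, adjusted p = 1.48e-04). Nrg1 showed little spread within either group; its exons overlap those of Gm26578 on the opposite strand, at 4.42 FPKM on average. The 24 tested genes of its 10 Mb window had a median of 0.21, and centred on its chromosome median Nrg1 was at 0.17 (adjusted p = 0.0113).

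Ereg, Areg and Btc encode the EGFR ligands epiregulin, amphiregulin and betacellulin, and lie in 1 cluster of 328 kb on chromosome 5 (chr5:91074622-91402994). The 3 genes stood differently from one another. Ereg was the most abundant, at 6.78, 6.89 and 7.47 FPKM in the control libraries and 6.42, 9.37 and 6.73 FPKM with NNMT. Its NNMT libraries lay on both sides of the control libraries, and it was not called (log2 fold change 0.07, 95% interval -0.18 to 0.31, adjusted p = 0.619). NNMT replicate 2 alone was above the control libraries, and without it the log2 fold change was -0.086 and still not called.

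Areg and Btc were under 1 FPKM on average and were tested on the recovered reads with limma-voom, a test added after the data were seen. It took in 15836 genes with at least 10 reads over the 6 libraries, of which 54.1% were called. Areg was at 0.956, 0.985 and 1.24 FPKM in the control libraries and at 0.562, 0.472 and 0.184 FPKM with NNMT, on 132 and 55 reads. All NNMT libraries were lower, 2.61-fold by the means (limma-voom log2 fold change -1.52 ± 0.355 SE, adjusted p = 1.70e-03). Btc was at 0.337, 0.286 and 0.285 FPKM against 0.677, 0.738 and 0.545 FPKM, on 91 and 210 reads, and was 2.16-fold higher (1.05 ± 0.234 SE, adjusted p = 1.24e-03). Neither overlapped between the groups.

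The 250 bases before the RefSeq starts of these neighbours, which moved in opposite directions, are shown with those of Flt1, the other gene of the list whose window holds a cAMP response element (TGACGTCA, the same on both strands). That element is in 1.55% of the 32841 windows. In capitals it lies 61 bases before the start of Areg (chr5:91139349-91139598, plus strand) and 81 bases before the start of Flt1 (chr5:147726012-147726261, minus strand). The second run of capitals is TATAAA, 31 bases before each start. The window of Btc (chr5:91402995-91403244, minus strand) holds none of the 5 motifs searched.
Areg: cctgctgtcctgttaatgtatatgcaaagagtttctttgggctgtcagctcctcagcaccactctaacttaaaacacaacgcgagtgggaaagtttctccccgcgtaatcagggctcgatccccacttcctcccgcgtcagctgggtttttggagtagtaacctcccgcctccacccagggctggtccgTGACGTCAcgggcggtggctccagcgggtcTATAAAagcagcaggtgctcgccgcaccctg
Btc: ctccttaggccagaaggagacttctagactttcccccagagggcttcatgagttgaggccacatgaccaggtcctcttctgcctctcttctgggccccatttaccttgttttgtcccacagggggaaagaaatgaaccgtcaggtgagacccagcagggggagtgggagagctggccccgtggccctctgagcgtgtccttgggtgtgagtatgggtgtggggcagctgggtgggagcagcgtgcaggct
Flt1: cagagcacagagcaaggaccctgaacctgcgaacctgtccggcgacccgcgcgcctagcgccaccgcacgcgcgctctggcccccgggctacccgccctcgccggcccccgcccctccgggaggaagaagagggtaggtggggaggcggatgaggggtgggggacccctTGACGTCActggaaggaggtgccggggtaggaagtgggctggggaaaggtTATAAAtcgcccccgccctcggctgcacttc
Areg was lower and Flt1 higher with NNMT, so these genes share the element and not the direction.

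Beside the 4 motifs spelled out above, the AP-1 element TGACTCA was searched, each on both strands. RefSeq windows were found for 35 of the 45 genes, 47 windows in all. Beside the genes shown, the TATA box was found at Gdnf, Kitl and Pdgfd, the E-box at Fgfrl1 and Met, and the AP-1 element at Met; the AP-1 element is in 4.46% of all windows. The windows of these genes held a median of 13 CpG dinucleotides, against 6 over all 32841. Those windows cover 27018 genes, expressed in these cells or not, and some of the listed genes, such as Bdnf, count with several windows. The medians are thus not a comparison with genes of like expression.

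The receptors of the EGF family also differed from one another. Egfr was at 0.768, 0.677 and 0.705 FPKM in the control libraries and at 1.57, 1.09 and 1.62 FPKM with NNMT, with NNMT replicate 2 the lowest of its group. It was 1.99-fold higher on 764 and 1637 reads (log2 fold change 0.49 ± 0.0954 SE, adjusted p = 1.07e-03). This log2 value was 0.89 with a pseudocount of 0.1, 0.092 with a pseudocount of 10 and 0.93 in limma-voom. Erbb2, the receptor with no known ligand of its own that pairs with the others, was at 18.3, 17.8 and 17.2 FPKM against 14.2, 13.7 and 12.8 FPKM, with no overlap. It was 1.31-fold lower (-0.37 ± 0.0525 SE, adjusted p = 1.40e-04), and its exons overlap those of Mien1 on the opposite strand, at 2.63 FPKM on average. Erbb3, which binds neuregulins, had 38 reads in the control and 11 in the NNMT libraries. Tgfa, another EGFR ligand, had no read in any library, which allows up to 0.00306 FPKM, and Erbb4 had none either. Per length, Erbb2 was the most abundant transcript of the ERBB receptors in both groups.

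Errfi1, a feedback inhibitor that binds EGFR and ERBB2 directly, belongs to the list of receptor inhibitors given further on. It fell from 41.0 ± 1.36 to 17.8 ± 0.820 FPKM (2.30-fold, log2 fold change -1.16 ± 0.0505 SE, adjusted p = 4.13e-08).

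Of the neurotrophic factors, Bdnf was lower and Gdnf higher. Bdnf (chr2:109674700-109727007) encodes brain-derived neurotrophic factor, the ligand of TrkB and of the p75 receptor, and stood at 21.9, 23.1 and 23.6 FPKM in the control libraries and at 10.1, 11.4 and 9.02 FPKM with NNMT. The groups were far apart, and the means of 22.9 ± 0.871 and 10.2 ± 1.18 FPKM differed 2.25-fold (log2 fold change -1.10 ± 0.0730 SE, adjusted p = 6.95e-07). The 28 tested genes of its 10 Mb window had a median of -0.20, with 18 lower and 2 higher. Ntrk2, the gene of TrkB, was at 0 reads in all libraries, and Ngfr, the gene of p75, had 1 read in the control and 7 in the NNMT libraries.

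Gdnf (chr15:7810846-7837575) encodes a survival factor of neurons that signals through GFRα1 and RET. It was at 0.544, 0.769 and 0.603 FPKM in the control libraries and at 1.57, 1.76 and 1.5 FPKM with NNMT, 2.52-fold higher on 237 and 630 reads (log2 fold change 0.67 ± 0.0816 SE, adjusted p = 4.55e-05). This log2 value was 1.22 with a pseudocount of 0.1, 0.13 with a pseudocount of 10 and 1.28 in limma-voom. No NNMT library came near the control range. Ret had 2 reads in all, and Gfra1 was at 0.971 ± 0.0355 FPKM in the control libraries and 0.648 ± 0.0534 with NNMT. Schwann and neural markers summed to 4.09 to 4.51 FPKM in the control libraries and 0.224 to 0.277 with NNMT, nearly all of it Tubb3; their part in the neurotrophic genes was not tested.

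Of the other ligands above 1 FPKM, Gas6 and Ptn were higher with NNMT. Gas6 (chr8:13465374-13494490) encodes a vitamin K-dependent ligand of the TAM receptors TYRO3, AXL and MERTK, and stood at 9.53, 8.21 and 8.12 FPKM in the control libraries and at 21.6, 16.1 and 19.2 FPKM with NNMT. Its lowest NNMT library was above its highest control library, and the means of 8.62 ± 0.787 and 19.0 ± 2.80 FPKM differed 2.20-fold (log2 fold change 1.05 ± 0.0963 SE, adjusted p = 6.44e-06). The 3 TAM receptors were all lower with NNMT. Axl fell from 289 ± 4.34 to 204 ± 6.98 FPKM (-0.50 ± 0.0446 SE, adjusted p = 5.11e-06), Tyro3 from 7.34 ± 0.0301 to 5.05 ± 0.334 FPKM (-0.46 ± 0.0584 SE, adjusted p = 5.84e-05) and Mertk from 1.80 ± 0.0695 to 0.537 ± 0.0115 FPKM (-0.87 ± 0.0692 SE, adjusted p = 2.39e-06). The NNMT mean of Mertk was under 1 FPKM, so Mertk entered the test only through its control libraries. Pros1, which encodes the other main TAM ligand, protein S, was higher, at 8.60 ± 0.595 and 12.3 ± 0.880 FPKM (0.46, adjusted p = 1.45e-04).

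Ptn (chr6:36714929-36810220) encodes pleiotrophin, a heparin-binding growth factor, and was the most abundant of the 45 genes per length in the NNMT libraries. It stood at 166, 136 and 152 FPKM in the control libraries and at 463, 343 and 421 FPKM with NNMT. NNMT replicate 2 was the lowest of its group and still above each control library by more than the spread of the controls. The means of 151 ± 14.9 and 409 ± 60.8 FPKM differed 2.71-fold, the largest rise on the log2 scale among the 24 tested (1.42 ± 0.103 SE, adjusted p = 1.21e-06). The 38 tested genes of its 10 Mb window had a median of -0.07. Mdk, which encodes midkine, the only close relative of pleiotrophin, had 27 reads in the control and 40 in the NNMT libraries (limma-voom 0.36, 95% interval -0.53 to 1.24).

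Csf1 and Kitl encode the ligands of 2 related receptors, CSF1R of macrophages and KIT of mast cells, melanocytes and germ cells. Csf1 was the most abundant of the 45 genes per length in the mean of the control libraries, at 163, 164 and 168 FPKM, and was at 132, 136 and 126 FPKM with NNMT. All NNMT libraries were lower, 1.26-fold by the means (log2 fold change -0.33 ± 0.0461 SE, adjusted p = 1.26e-04). Il34, the other ligand of CSF1R, rose from 1.57 ± 0.176 to 2.59 ± 0.669 FPKM (0.47 ± 0.118 SE, adjusted p = 5.59e-03). Csf1r was at 0.761 ± 0.0486 FPKM in the control libraries and 0.194 ± 0.0715 with NNMT. The summed leukocyte and macrophage markers, Csf1r included, were at 6.69 to 7.46 FPKM and 3.28 to 4.58 FPKM, and their part in these genes was not tested.

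Kitl was at 8.5, 8.77 and 8.68 FPKM in the control libraries and at 7.58, 8.93 and 9.55 FPKM with NNMT. The NNMT libraries spread to both sides of the control libraries, and the log2 fold change was 0.00 (95% interval -0.16 to 0.16, adjusted p = 0.999). Kit had no read in any library, which allows up to 0.00265 FPKM.

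**Figure D3:**
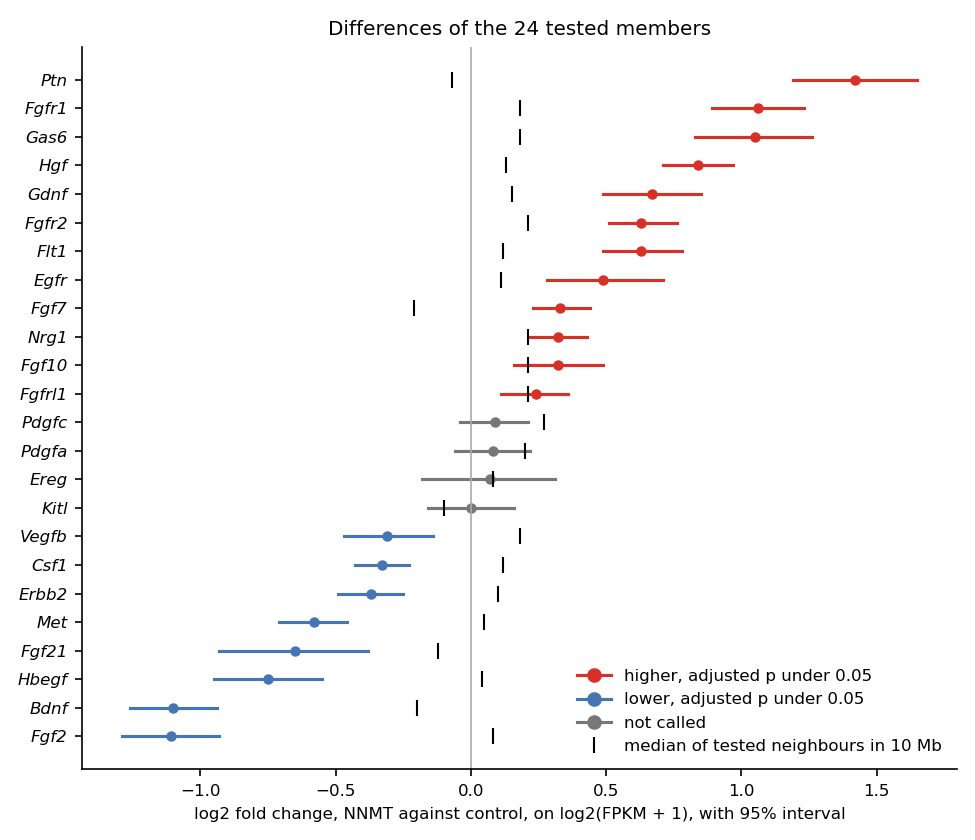
Log2 fold change of the 24 tested genes, NNMT against control on log2(FPKM + 1), with the 95% interval of limma (red higher, blue lower, grey not called), and a tick for the median of the tested genes within 10 Mb. Ptn, Fgfr1 and Gas6 lie above 1 and Fgf2 and Bdnf below -1, while Fgfrl1 lies beside the median of its neighbours.

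By role, the 17 tested ligands split into 7 higher, Gdnf among them, 6 lower and 4 not called. The 7 tested receptors, the decoy Fgfrl1 included, split into 5 higher, Egfr among them, and 2 lower. Of all tested genes 35.0% were higher and 30.6% lower. Gdnf and Egfr had passed the filter only through their NNMT libraries, so these splits describe the list and show no trend by role. The 2 receptors that were lower, Met and Erbb2, were the second and the third most abundant receptors of the list in the control libraries, after Fgfr1. NNMT replicate 2 had the lowest NNMT value for 8 of the 12 genes called higher. Over all genes called higher the share was lower, at 45.2%.

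Several genes of low level differed by as much as the abundant ones, on far fewer reads. Of the 21 genes with a mean under 1 FPKM, 11 had at least 10 reads and were tested with limma-voom. Of these, 5 were higher, 2 lower and 4 not called, where 54.1% of all genes in that test were called. Pdgfb, among the 5, reached 10 reads only through its NNMT libraries. Angpt1, which encodes the activating ligand of TIE2, stood at 0.442, 0.374 and 0.401 FPKM in the control libraries and at 1.26, 1.2 and 1.43 FPKM with NNMT. It was 3.20-fold higher on 180 and 617 reads (limma-voom log2 fold change 1.63 ± 0.162 SE, adjusted p = 3.46e-07), with a wide gap between the groups.

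Angpt2, which encodes the context-dependent antagonist of ANGPT1, was at 0.256, 0.180 and 0.169 FPKM against 0.274, 0.302 and 0.456 FPKM and just missed the threshold (0.70, 95% interval 0.08 to 1.31, adjusted p = 0.0522). Tek, the gene of TIE2, had 24 and 21 reads (-0.24, 95% interval -1.29 to 0.81, adjusted p = 0.714). Vegfc, the lymphatic growth factor, was at 0.734, 0.533 and 0.470 FPKM against 0.956, 1.32 and 0.849 FPKM, 1.80-fold higher (0.79 ± 0.246 SE, adjusted p = 0.0125). The lowest NNMT library of Vegfc was only slightly above its highest control library.

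Mst1r was at 0.0312, 0.0491 and 0.0939 FPKM in the control libraries and at 0.149, 0.138 and 0.292 FPKM with NNMT, 3.32-fold higher (limma-voom log2 fold change 1.70 ± 0.454 SE, adjusted p = 4.59e-03). Erbb3 was at 0.0537, 0.0726 and 0.0525 FPKM against 0.0208, 0.0188 and 0.00915 FPKM, 3.67-fold lower (-1.85 ± 0.512 SE, adjusted p = 5.80e-03). Both are best known from epithelium, whose 8 markers summed to 0.501 to 1.13 FPKM in the control libraries and 0.284 to 0.383 with NNMT, with 3 of them at 0 in all libraries; their part in these genes was not tested. Pdgfb passed on 1 against 10 reads (adjusted p = 0.0308), too few for a ratio, and did not pass in limma on log2(FPKM + 1) without a filter (adjusted p = 0.0563). The other 10 genes, Fgf1, Fgf5, Fgfr3, Fgfr4, Pdgfd, Kdr, Flt4, Tgfa, Kit and Ngfr, had under 10 reads in all and were not tested.

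**Figure D4:**
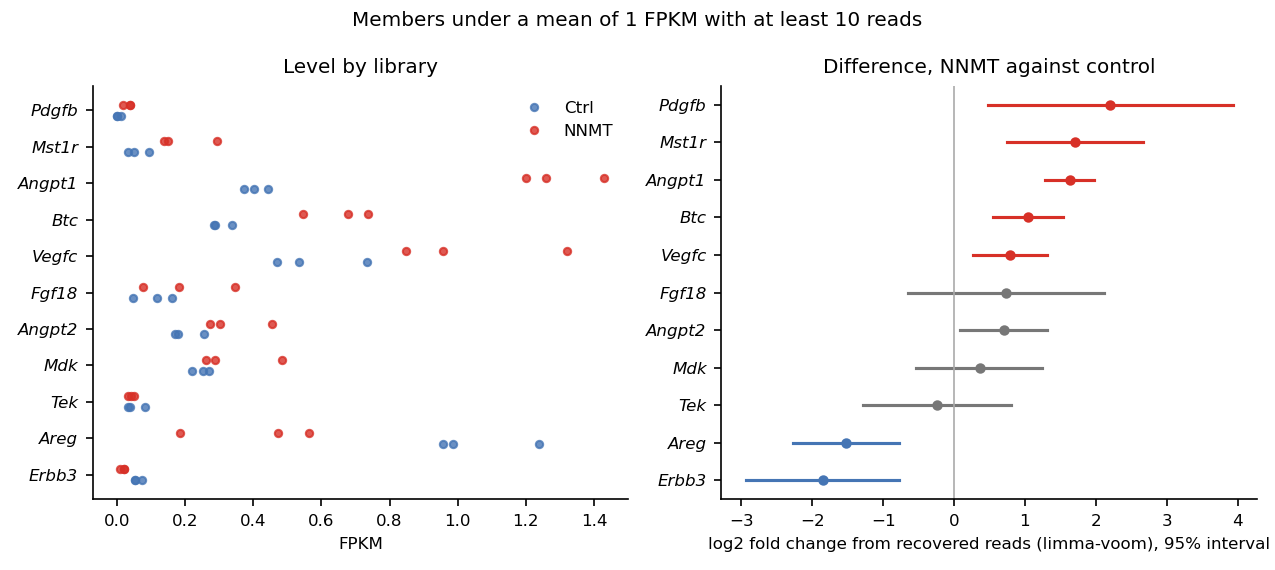
The 11 genes with a mean under 1 FPKM and at least 10 reads: FPKM in each library at left (blue control, red NNMT), and at right the limma-voom log2 fold change with its 95% interval (red higher, blue lower, grey not called). Angpt1 shows the widest gap between the groups, while the interval of Pdgfb runs from 0.48 to 3.93 on 11 reads.

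Further genes chosen around these pathways were read from 5 lists, beside a median log2 fold change of 0.03 over all 10882 tested genes. Of 46 adaptors and cascade proteins 44 were tested, with a median log2 fold change of -0.03. In this list 13 were higher and 16 lower, 65.9% called, near the 65.6% of all tested genes. The 4 with the smallest adjusted p were all lower: Rps6ka3, an X-linked kinase downstream of ERK (11.3 ± 0.119 to 4.37 ± 0.295 FPKM), Rasa1, a RAS GTPase-activating protein (29.1 ± 1.2 to 17.3 ± 0.599), the X-linked RAF kinase Araf (22.4 ± 0.317 to 15.6 ± 0.603) and Akt1 (167 ± 1.48 to 113 ± 7.87). Tested X genes had a median log2 fold change of -0.70; Rps6ka3 was at -1.20 and Araf, at -0.50, fell less than that median. Of 20 genes for receptor turnover and receptor-proximal inhibitors 19 were tested, with a median of 0.09. In this list 7 were higher and 6 lower, 68.4% called, again near the share of all tested genes. Beside Errfi1, the X-linked endocytic adaptor Sh3kbp1 fell from 25.5 ± 0.312 to 9.20 ± 0.284 FPKM and Grb14, an inhibitory adaptor, from 35.7 ± 1.06 to 19.8 ± 1.78, while Lrig3 rose from 7.79 ± 0.285 to 16.4 ± 1.26 FPKM.

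Of 23 genes found for ligand processing, storage and coreceptors, 11 were tested, and 8 were lower, 2 higher and 1 not called, with a median log2 fold change of -0.43. Of all tested genes 30.6% were lower, and the other 12 of the 23 were under the filter. Nrp1, a coreceptor of VEGFs, fell from 42.4 ± 1.12 to 28.5 ± 1.07 FPKM, Flrt2 from 18.2 ± 1.92 to 8.42 ± 1.32 and Cd44, which holds heparin-binding factors at the surface, from 38.7 ± 1.97 to 25.2 ± 2.58. Rhbdf2, which encodes a partner of the sheddase ADAM17, rose from 1.97 ± 0.135 to 3.67 ± 0.121 FPKM. Of 25 other receptor tyrosine kinases 12 were tested, and 4 were higher and 5 lower; Ddr1, a collagen receptor, rose from 18.5 ± 0.0714 to 28.7 ± 1.54 FPKM. Of 24 genes listed as other ligands 7 were tested, and 3 were higher and 4 lower. All 7 were thus called, but the groups did not overlap for only 4 of them, against 69.9% of all tested genes. The 3 higher were Pros1, Il34 and Angptl4, and of the 4 lower only Angptl2 is named here. Among the 7 were the angiopoietin-like genes Angptl4, which rose from 7.67 ± 0.662 to 10.2 ± 0.171 FPKM, and Angptl2, which fell from 72.1 ± 1.83 to 56.3 ± 2.64 FPKM. Nothing here shows that their products bind a receptor of these families. Csf1r and Gfra1, named above, averaged under 1 FPKM and were not tested. Each other gene named from these lists with a change passed the same limma test (adjusted p from 7.76e-09 for Sh3kbp1 to 5.59e-03 for Il34).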

How the data were processed

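The authors deposited a single table of 6 libraries, without a unit in its header. Its deposited values were read as FPKM because their steps match transcript lengths in GENCODE M21, at the longest transcript for 71.1% of the 20528 genes above 0. Whole reads were recovered for all of these (tolerance 0.01 of a read). Where no annotated length fitted, as for Ptn, Hgf and Gas6, the smallest whole length that fitted was taken, which gives the fewest reads. CASAVA, STAR 2.5 and mm10 are named per the submitters' processing notes; the sources used here name no counter and no strand rule. As the values are not counts, the planned test for normalized values was used, limma 3.58.1 in R 4.3.3, two-sided. It took log2 values with a pseudocount of 1, a mean-variance trend and robust moderation. The fit was also run on simulated data in which only a small set of genes differed. That setting is unlike these data, in which 65.6% of tested genes were called, so it does not check the calls made here. No libraries agreed within sampling noise (chi-square 5.70 to 20.2 per degree of freedom).

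The genes and lists were chosen with earlier results of these data known. All 45 genes are accounted for, with up to 4 of smallest adjusted p from each further list. Pdgfra, Tyro3, Csf1r, Gfra1, Klb, Ret, Ntrk2 and Erbb4 were added beside their ligands after values were seen. Anos1 was not used here. Muscle markers summed to 13 to 16.3 FPKM in control and 3.60 to 6.52 FPKM in NNMT libraries. Alternatives were other scalings, filters, pseudocounts and moderation, centring on chromosome medians, a replicate block and leaving out each library.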

Additional observations from a re-analysis of the deposited data

How the results depend on the processing

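The 20 called genes kept their direction under each alternative that tested them, and Fgfrl1 alone lost its call, under centring on chromosome medians (0.079). Counts of calls, over all genes and over these genes, stayed within 1.5 times the main count under each alternative. The size of the log2 values of called genes moved by over 1.5 times as follows. With a pseudocount of 10, 12 of the 20 were smaller; with 0.1, Egfr and Gdnf were larger; in both limma-voom fits Fgf2, Fgf21, Egfr and Gdnf were larger. Vegfb was larger and Fgfrl1 and Nrg1 smaller under centring on chromosome medians, and Fgf21 was smaller (-0.43) under the replicate block. Egfr or Gdnf fell under the filter when an NNMT library was left out. The genes that were not called did not keep their sign. The log2 fold change of Kitl was -0.039 with quantile normalization, -0.025 with medians of ratios scaling, -0.049 in both limma-voom fits and -0.0005446 with a pseudocount of 0.1. Leaving out each library gave values from -0.064 to 0.085 for Kitl and from -0.086 to 0.156 for Ereg. Under centring on chromosome medians Pdgfa was at -0.075, Pdgfc at -0.043 and Ereg at -0.091. The cause of these changes of sign was not tested. The replicate block could be fitted only on the 4 libraries of replicates 2 and 3. It called 3910 genes higher and 3199 lower, 13 and 8 of them among the 45, and added Pdgfc (0.15). Deviations of same-numbered libraries correlated at 0.212 and 0.110. The unnumbered NNMT library correlated best with control replicate 1 (0.314) but has no number in its column, and NNMT replicate 2 correlated alike with control replicates 2 and 3 (0.212 each), so the numbers were not taken to pair the libraries. The median log2 fold change of all tested genes moved between -0.014 and 0.028 over the scalings. Depth limits the 21 genes under 1 FPKM, of which 10 had too few reads for a test.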
